A study of Mus musculus with 6 samples.

Results

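The transcriptome described here is that of E0771 cells grown with the solvent DMSO alone. E0771 is a mouse mammary carcinoma line of C57BL/6 background. Of the 6 RNA sequencing libraries of the study, the 2 labelled DMSO were used. The other 4 libraries came from the same line after 24 h with 7.4 µM Enniatin A (EnnA) or 0.5 µM 17-AAG, 2 of each. They set an error on a level, and they bear on which genes have a value, since the deposited tables compare each compound with DMSO. All groups were this 1 line with no genetic change named and 48 h of growth in serum-containing medium, and the labels give no time of exposure to DMSO. Separate cultures are not stated for the libraries within a group.

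Levels are in FPKM, fragments per kilobase of transcript and 1000000 mapped fragments, a scale that divides by length so that genes can be set beside each other. The authors deposited 1 pooled FPKM per gene and group, so no spread between the 2 DMSO libraries stands beside a value and no test was made. Depth per library is unknown. The authors' p-values for a difference between groups imply a standard error on the log2 scale with a median of 0.356 under 2 FPKM, 0.178 at 2 to 10 FPKM, 0.156 at 10 to 100 FPKM and 0.150 at 100 FPKM or more. The error of a difference is an upper limit for that of 1 group, but as a median over genes it is not a limit for a given gene. With a typical error of this size, a difference between a pair of genes lies beyond 2 errors when it exceeds 2.01-fold, 1.42-fold, 1.36-fold and 1.34-fold in those ranges. This scale does not cover differences between genes in how well reads map to them or in how their length was set. For mapping, each gene's share of 31-base words that occur in no other annotated gene's transcripts, its unique words, is given beside results it touches, a measure added after the levels were seen.

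A DMSO value was found for 11397 genes. The median was 13.1 FPKM, the quartiles were 4.36 and 34.8 FPKM, and the top 10% began at 84.8 FPKM. Of all genes with a value, 91.2% reached 1 FPKM, 57.6% reached 10 FPKM and 8.27% reached 100 FPKM. Only 49 genes reached 1000 FPKM. The 25 highest genes held 17.2% of the summed FPKM and the 1000 highest held 62.7%. The gene lists are read against these figures, and the top 25% of all genes begins at the upper quartile. A gene without a value was not listed in either deposited table, which is not a level of 0. Every gene of the EnnA table reached at least 0.561 FPKM in its higher group, and every gene of the 17-AAG table at least 0.538 FPKM. Ranks, medians and shares over the 11397 genes therefore depend on the compound groups as well, and 373 of these genes came from the 17-AAG table alone.

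**Figure D1:**
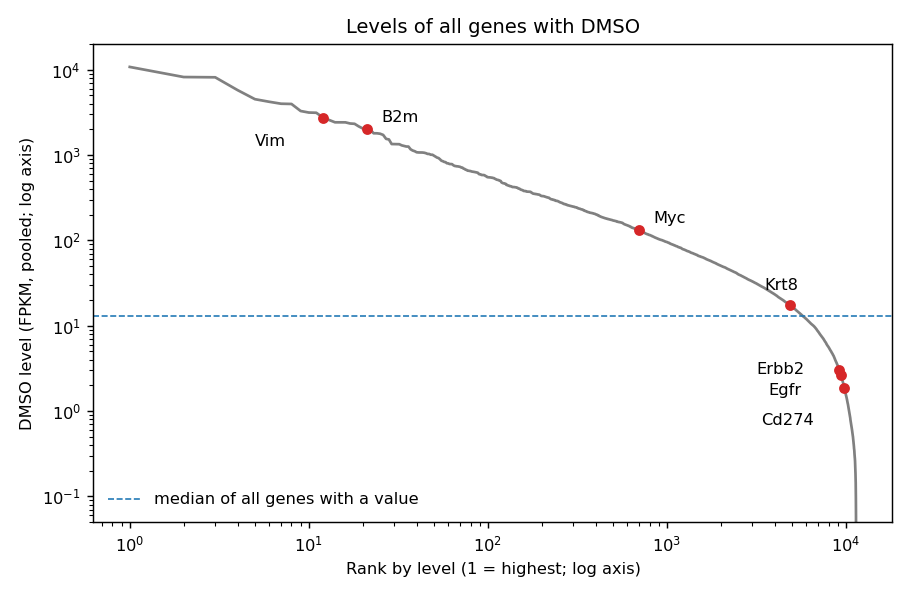
DMSO level in FPKM (vertical, log axis) of every gene above 0, in order of rank (horizontal, log axis), with the 7 given marker genes that had a value as red points and the median of all genes as a dashed line. Vim and B2m sit among the 25 highest genes, Myc lies in the top 10%, Krt8 lies just above the median, and Erbb2, Egfr and Cd274 lie below the lower quartile of 4.36 FPKM.

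The most abundant protein-coding messages of DMSO-treated E0771 cells encoded translation factors, ribosomal proteins, iron storage, intermediate filament and small calcium- or sugar-binding proteins. Elongation factor Eef1a1, which brings aminoacyl-tRNA to the ribosome, stood at 5761 FPKM. Ferritin heavy chain Fth1, which stores iron, stood at 4511 FPKM. The galectin Lgals1, a secreted lectin, reached 4208 FPKM and the S100 protein S100a6 reached 3965 FPKM, so these lay within 1.34-fold of Fth1 and were not separated from it beyond 2 errors. The intermediate filament gene Vim followed at 2746 FPKM, in rank 12.

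Of the 25 highest genes, 12 encode parts of the ribosome, among them Rpl8 at 3128 FPKM and Rps14 at 1776 FPKM. Between these lay Gnb2l1 at 2567, Rps2 at 2417, Rpl41 at 2416, Rpl4 at 2414, Rps3 at 2340, Rps9 at 2163, Rpl32 at 2048, Rps15 at 1995 and Rps21 at 1797 FPKM. Gnb2l1 encodes RACK1, a scaffold on the small subunit. Of the 12, Gnb2l1, Rps2, Rpl4, Rps3 and Rpl32 overlap another listed gene, and ribosomal proteins have many near-identical pseudogene copies, so these levels are uncertain. The other members of the 25 were the chemokine gene Ccl2 at 2322 FPKM, the MHC class I light chain gene B2m at 2007 FPKM, which overlaps another listed gene, the predicted gene Gm13826 at 1798 FPKM and 5 small non-coding RNAs. Those 5 were Snord82 at 10768, Snord16a at 8198, Mir682 at 8141, Mir5133 at 3991 and Snord34 at 3279 FPKM. The snoRNAs lie inside other listed genes, and an FPKM divides by a very short length for all 5, so their place at the top cannot be compared with that of messenger RNAs.

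Promoter sequences of a few of these genes are shown because their features were counted over all genes further on. Translation genes of vertebrates are known to start within a run of pyrimidines, the 5' terminal oligopyrimidine tract that couples their translation to mTOR signalling. The lines below give 15 bases before to 15 bases from the annotated RefSeq start (GRCm38.p6), 5' to 3', with a C followed by at least 5 C or T within 10 bases of the start in capitals. Eef1a1 lies at chr9:78481710-78481739 (minus strand), Gnb2l1 at chr11:48800345-48800374 (plus), Rps9 at chr7:3704026-3704055 (plus), Rps2 at chr17:24720048-24720077 (plus) and Rps15 at chr10:80292416-80292445 (plus).
Eef1a1: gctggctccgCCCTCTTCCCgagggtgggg
Gnb2l1: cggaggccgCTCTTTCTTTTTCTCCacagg
Rps9: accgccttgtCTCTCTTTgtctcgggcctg
Rps2: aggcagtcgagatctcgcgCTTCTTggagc
Rps15: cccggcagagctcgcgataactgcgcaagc
The tract was 10 bases long in Eef1a1, 16 in Gnb2l1, 8 in Rps9 and 6 in Rps2, and the window of Rps15 holds none. These are examples and not the rule. Of the 50 highest genes, RefSeq promoters of 30 were read, and 11 of these 30 held such a tract (36.7%). The 11 included S100a4, Shfm1, Ftl1, 2410006H16Rik, Cox6b1 and Cd9, which are in neither the ribosomal protein list nor the translation factor list. Over all 32851 promoters the share was 15.1%. That share counts each promoter once, whereas a gene of the 30 counted with a tract in any entry, so it is not a like baseline. Rpl41, Rpl4, Rps3, Eef2, Rplp0 and Eif5a, not shown, held none within 10 bases of the start. The Rpl4 window does hold a pyrimidine run, ttccttttcct, which begins more than 10 bases before the start and was not counted. Rps21 held a counted tract in 1 of its 2 entries. A match of letters is a description of the annotated start and not a mapped start site in these cells.

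Mammary epithelium has an inner luminal layer, marked by Krt8 and Krt18, and an outer basal or myoepithelial layer, marked by Krt5, Krt14 and Trp63. Tumor cells can lose these epithelial genes and gain mesenchymal ones, a change known as epithelial-mesenchymal transition. In E0771 cells with DMSO the mesenchymal genes stood high and few epithelial genes had a value. Of 25 mesenchymal genes, 18 had a value, with a median of 36.5 FPKM, and 10 lay in the top 25%. Of 25 luminal genes, 8 had a value, with a median of 1.72 FPKM, and 0 lay in the top 25%. Of 20 basal genes, 5 had a value, with a median of 34.2 FPKM.

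Krt8, the luminal keratin, stood at 17.7 FPKM, and its partner Krt18 had no value. Spint2, which encodes an inhibitor of serine proteases, stood at 9.28 FPKM, and the epithelial transcription factor gene Elf3 stood at 3.83 FPKM. Levels of the remaining luminal genes were near or below 2 FPKM. They were St14 at 1.82, Epcam at 1.61, Foxa1 at 1.09, Ovol1 at 0.656 and Gata3 at 0.156 FPKM, where the error of a level is widest. The adherens junction gene Cdh1 had no value, and neither did the claudins Cldn3, Cldn4 and Cldn7, the keratins Krt19 and Krt7, Muc1, Prlr, Cited1, Rab25, Spint1 or the epithelial regulators Elf5, Ehf, Esrp1, Esrp2 and Grhl2. The 9 milk protein genes had none either.

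Among basal genes, Acta2, the smooth muscle actin, stood at 133 FPKM, the laminin-binding integrin gene Itga6 at 59.4 FPKM and the protein C receptor gene Procr at 34.2 FPKM. Those 3 are also made by cells outside the mammary epithelium. Egfr stood at 2.65 FPKM and Itgb4, the partner of Itga6 in hemidesmosomes, at 0.556 FPKM, the last taken from the 17-AAG table and sharing its locus with another listed gene. The keratins that define the basal layer, Krt5, Krt14, Krt17, Krt6a and Krt6b, had no value, as was the case for Trp63, Sox10, Lgr5, Dsg3, Dsc3, Oxtr and the contractile genes Myh11, Cnn1, Mylk and Tagln.

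The mesenchymal list was led by Lgals1 at 4208, Vim at 2746 and S100a4 at 1547 FPKM. The matricellular gene Sparc stood at 197 FPKM, the hyaluronan receptor gene Cd44 at 123 FPKM and the receptor kinase gene Axl at 94.4 FPKM. Every transition factor with a value exceeded the luminal factors Elf3, Foxa1, Ovol1 and Gata3. Twist1 stood at 37.7, Twist2 at 35.3, Zeb2 at 25.1, Zeb1 at 15.3 and Snai1 at 9.93 FPKM, while Snai2 had no value. Zeb2 shares its locus with another listed gene. Prrx1 stood at 50.01 and Col3a1 at 63.7 FPKM, but Col1a1 was at 0.566 FPKM, Cdh11 at 0.214 FPKM and Tgfbi at 3.66 FPKM. Fn1, Cdh2, Col1a2, Fbn1, Thy1 and Fap had no value. Vim exceeded Krt8 156-fold, far beyond the 1.36-fold that 2 errors allow. Those errors leave out mapping, and unique words were 67.7% for Krt8 against 99.6% for Vim. By its markers the culture therefore carried the mesenchymal genes of the list more than the luminal ones, whereas the label names a breast cancer line and no subtype.

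**Figure D2:**
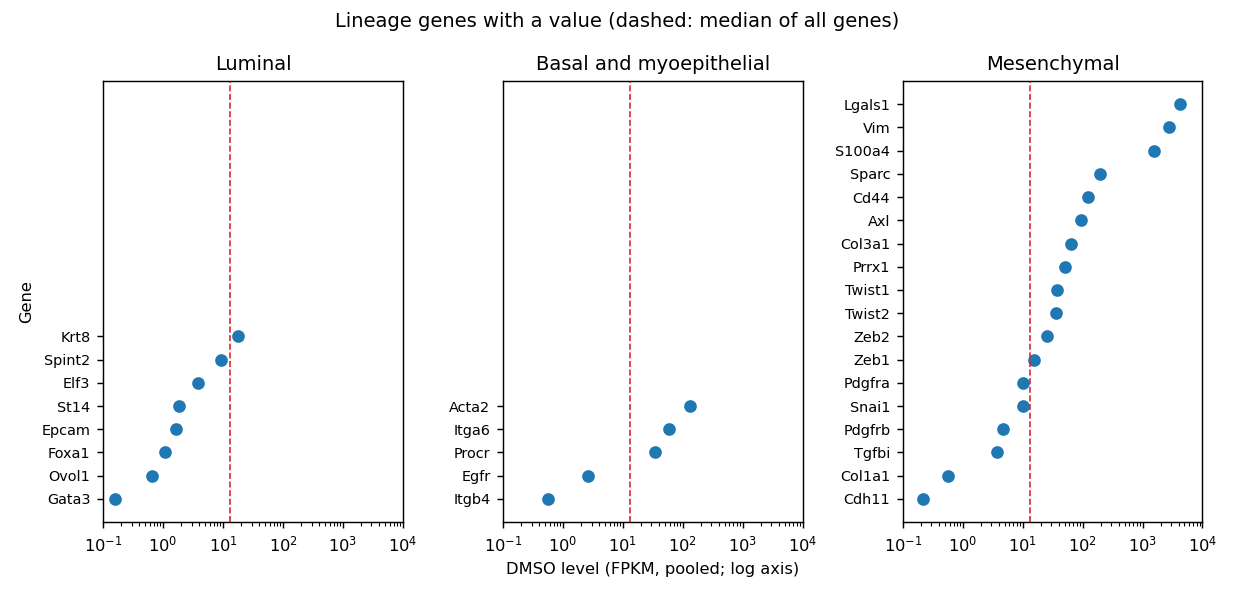
DMSO level in FPKM (horizontal, log axis) of each luminal, basal and mesenchymal gene that had a value, 1 point per gene, with the median of all genes as a dashed line. Krt8 is the only luminal gene above the 13.1 FPKM median, against 12 mesenchymal genes from Zeb1 upward.

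Of the 50 highest genes, 30 had a RefSeq promoter that was read here, and the rest of the 50 were not searched. Promoters of Vim and S100a4 are shown because, of those 30, they alone held TATAAA between 40 and 20 bases before the start. TATAAA is the core of a TATA box. The lines give bases from 45 before to 10 from the start with TATAAA in capitals. Vim lies at chr2:13574266-13574320 (plus strand) and S100a4 at chr3:90603725-90603779 (plus strand), both in GRCm38.p6.
Vim: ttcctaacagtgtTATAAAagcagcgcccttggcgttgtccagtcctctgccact
S100a4: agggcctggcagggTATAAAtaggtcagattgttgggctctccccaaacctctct
The match begins 32 bases before the start in Vim and 31 bases before it in S100a4.

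Markers of other cell types were mostly without a value. Of 15 lymphocyte genes only the kinase gene Lck had a value, at 1.16 FPKM. The defining genes Ptprc, Cd3e and Ms4a1 had none. Of 16 myeloid genes 4 had a value, S100a8 at 220 FPKM, the lysosomal Cd68 at 38.0 FPKM, the lysozyme Lyz2 at 12.2 FPKM and Cd14 at 2.58 FPKM. The defining myeloid genes Itgam, Csf1r and Tyrobp had none, nor did S100a9, the partner of S100a8. Of 9 endothelial genes Esam alone had a value, at 6.79 FPKM, and Pecam1 and Cdh5 had none. Of 10 fibroblast genes 4 had a value, Col3a1 at 63.7, Pdgfra at 10.1, Pdgfrb at 4.75 and Col1a1 at 0.566 FPKM, and Dcn and Lum had none. Fabp4, a fatty acid carrier of adipocytes and macrophages, stood at 431 FPKM while the other 6 adipocyte genes, among them Adipoq and Plin1, had no value. The hemoglobin genes Hba-a2 at 1.40 and Hba-a1 at 1.30 FPKM overlap other listed genes and are near-identical copies. In bulk RNA, few cells of another type and a low level in every cell cannot be told apart.

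Nuclear hormone receptors are ligand-gated transcription factors, and the estrogen and progesterone receptors class human breast tumors. Of 28 genes 17 had a value, with a median of 11.1 FPKM, and 1 lay in the top 25%. Esr1, the estrogen receptor, was the lowest at 0.559 FPKM, and Pgr and Esr2 had no value. The highest were Rxrb, a partner of many receptors, at 38.1 FPKM and the oxysterol receptor gene Nr1h2 at 30.5 FPKM. Nr3c1, the glucocorticoid receptor, stood at 24.3 FPKM, 43.4-fold above Esr1. The clock repressors Nr1d2 and Nr1d1 stood at 24.2 and 19.4 FPKM, followed by Ppard at 19.0, Thra at 16.7, Nr2f6 at 16.2, Rarg at 11.1 and Esrra at 10.1 FPKM. Below these came Rxra at 8.61, Rara at 5.43, Nr1h3 at 4.32, Nr2f2 at 2.24, Nr2f1 at 2.13 and Vdr, the vitamin D receptor, at 0.949 FPKM. Esrra and Nr2f1 share a locus with another listed gene. The steps from Nr2f6 to Rarg, Rxra to Rara, Nr1h3 to Nr2f2 and Nr2f1 to Vdr exceeded 2 errors, and the other neighbours in this order were not separated. Nr3c2, Rarb, Rxrg, Thrb, Ppara, Pparg, Esrrb and Esrrg had no value.

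Receptor tyrosine kinases carry growth factor signals across the membrane. Of 34 genes 20 had a value, with a median of 5.40 FPKM, and Axl at 94.4 FPKM alone lay in the top 25%. The Wnt co-receptor gene Ryk stood at 32.7 FPKM and Met, the receptor of hepatocyte growth factor, at 31.7 FPKM. These differed by less than 2 errors, whereas Axl exceeded Met 2.98-fold. The collagen receptor gene Ddr2 stood at 26.8 FPKM, Fgfr1 at 20.4 FPKM and Epha2 at 14.5 FPKM. The ERBB family was low. Erbb2, the gene amplified in HER2-positive tumors, stood at 2.995 FPKM, Egfr at 2.65 FPKM and Erbb3 at 1.32 FPKM, and Erbb4 had no value. Erbb2 and Egfr differed by 1.13-fold, less than 2 errors, and Met exceeded Egfr 12.0-fold. Erbb2 and Ddr2 share a locus with another listed gene. The others lay below 11 FPKM. These were Pdgfra at 10.1, Ddr1 at 9.36, Ptk7 at 5.56, Insr at 5.42, Tyro3 at 5.39, Pdgfrb at 4.75, Ephb4 at 4.74, Igf1r at 4.29, Fgfr3 at 2.15, Mertk at 0.308 and Mst1r at 0.228 FPKM. Fgfr2, Fgfr4, Kit, Flt1, Kdr, Flt4, Ret, Ror1, Ror2, Epha1, Epha4, Ephb2 and Ephb3 had no value.

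Growth factor genes with a value had a higher median than receptor tyrosine kinases. Of 34 growth factor genes 16 had a value, with a median of 19.2 FPKM, and 5 lay in the top 25%. The EGFR ligands Ereg at 67.1 FPKM and Areg at 48.8 FPKM led, ahead of Pdgfa at 45.9 FPKM and the stress cytokine Gdf15 at 40.9 FPKM. Tgfb2 was the lowest at 0.301 FPKM. Tgfb1, named after its value was seen, stood at 37.0 FPKM, 123-fold above Tgfb2. Of 31 receptors of cytokines, death ligands and TGF-beta, 29 had a value, with a median of 10.1 FPKM. The TNF receptor family members Cd40 at 58.7, Tnfrsf12a at 55.1 and Tnfrsf1a at 49.5 FPKM led with the interleukin receptor subunit gene Il1rap at 38.1 FPKM. Tnfrsf12a shares its locus with another listed gene. The lowest was Il13ra1 at 0.606 FPKM. The interferon gamma receptor chains Ifngr1 and Ifngr2, looked at after their values were seen, stood at 22.4 and 26.6 FPKM and differed by less than 2 errors.

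MHC class I presents peptides of a cell's own proteins to CD8 T cells, and genes of its light chain, heavy chains and loading chaperones had values. Of 24 genes 20 had a value, with a median of 24.3 FPKM, and 8 lay in the top 25%. B2m led at 2007 FPKM, with a locus shared with another listed gene. The heavy chain gene H2-D1 stood at 372 FPKM, 6.09-fold above H2-K1 at 61.1 FPKM. Class I heavy chains have close copies, so how their reads were split is uncertain. The endoplasmic reticulum chaperones of loading, Canx and Pdia3, stood at 325 and 239 FPKM, and the heavy chain gene H2-T10 was the lowest at 0.497 FPKM. The peptide transporter subunit genes Tap1 and Tap2, looked at after their values were seen, stood at 15.5 and 16.4 FPKM and differed by less than 2 errors. MHC class II, which professional antigen-presenting cells use, was low. H2-DMb1 stood at 12.3 FPKM, H2-DMa at 11.8 FPKM, H2-Oa at 0.668 FPKM and the invariant chain gene Cd74 at 0.393 FPKM. The class II alpha chain gene H2-Aa and beta chain genes H2-Ab1 and H2-Eb1 had no value, and neither did Ciita, their activator, or Ctss.

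Cd274, the gene of PD-L1 that restrains T cells, stood at 1.84 FPKM in rank 9789, below the lower quartile of all genes. Of 29 checkpoint, recognition and adhesion ligands and immune-modulating enzymes 16 had a value, with a median of 22.3 FPKM, and 7 lay in the top 25%. The galectins Lgals1 at 4208 FPKM, Lgals3 at 345 FPKM and Lgals9 at 79.4 FPKM were among them. The NKG2D ligands Raet1d and Raet1e stood at 81.8 and 78.4 FPKM and share a locus, so their reads may not be separable. Pvr, the poliovirus receptor that binds TIGIT, stood at 72.7 FPKM. Cd47, the phagocytosis checkpoint, stood at 57.7 FPKM, 31.4-fold above Cd274. Lower levels were those of Nt5e at 27.5, Pvrl2 at 17.1, Icam1 at 16.7, Ptgs2 at 5.63, Icosl at 5.06, Nos2 at 4.81, Cd276 at 4.17 and Tnfrsf14 at 0.961 FPKM. The ligands Pdcd1lg2, Vtcn1, Cd80, Cd86, Cd200, Tnfsf9, Ulbp1, H60b, H60c and Ceacam1 and the enzymes Entpd1, Ido1 and Arg1 had no value.

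Secreted immune signals were spread widely. Of 36 chemokine and cytokine genes 30 had a value, with a median of 4.78 FPKM, below the median of all genes, yet 5 lay in the top 10%. Ccl2, which attracts monocytes, stood at 2322 FPKM, Mif at 1008 FPKM, Spp1 (osteopontin) at 731 FPKM and Ccl7 at 649 FPKM. The death ligand gene Tnfsf10 was the lowest at 0.168 FPKM. Interferon-stimulated genes were mostly low, with 44 of 47 having a value and a median of 5.28 FPKM. The membrane restriction factors Ifitm3 at 955, Bst2 at 259 and Ifitm2 at 236 FPKM stood apart from the next member, Ifi35 at 44.96 FPKM. Unique words were 79.5% for Ifitm3 and 62.9% for Ifitm2, against 100% for Bst2, so the levels of Ifitm3 and Ifitm2 are less certain. The lowest level was that of the GTPase gene Iigp1 at 0.267 FPKM. Of 23 genes that sense nucleic acids and microbial patterns 20 had a value, with a median of 7.55 FPKM. They were led by the DNA sensor gene Aim2 at 78.9 FPKM, the kinase gene Tbk1 at 41.7 FPKM, Irf3 at 31.1 FPKM and Tmem173, which encodes STING, at 26.7 FPKM. The toll-like receptor gene Tlr6 was the lowest at 0.447 FPKM.

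Genes of the cell division cycle were present almost without gaps. All 43 DNA replication genes had a value, with a median of 44.1 FPKM and 30 in the top 25%. All 40 genes of G2 phase and mitosis had a value, with a median of 63.1 FPKM and 31 in the top 25%. Replication was led by the ribonucleotide reductase subunit gene Rrm1 at 157 FPKM, the sliding clamp gene Pcna at 133 FPKM, Rpa3 at 120 FPKM and the helicase gene Mcm6 at 116 FPKM. The origin licensing gene Cdc6 was the lowest at 5.53 FPKM. Mitosis was led by securin Pttg1 at 330 FPKM, the ubiquitin-conjugating Ube2c at 298 FPKM, topoisomerase Top2a at 291 FPKM and cyclin A gene Ccna2 at 253 FPKM. Pkmyt1, an inhibitory kinase of CDK1, was the lowest at 9.62 FPKM. Ccna2 and Pkmyt1 share a locus with another listed gene. The 29 genes of G1 control were lower, with 27 having a value, a median of 18.8 FPKM and 8 in the top 25%. Cdk4 stood at 286 FPKM, Ccnd1 at 116 FPKM, Ccnd2 at 70.9 FPKM and the inhibitor gene Cdkn1b at 63.7 FPKM. Cdk6, named after its value was seen, stood at 12.9 FPKM, 22.2-fold below Cdk4. The lowest was Cdkn1c at 0.342 FPKM, and the INK4 genes Cdkn2a and Cdkn2b had no value.

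Myc, the growth-promoting transcription factor, stood at 133 FPKM in rank 695, inside the top 10%. Of 40 oncogenes, tumor suppressors and their signalling partners 38 had a value, with a median of 21.5 FPKM. Ctnnb1 (beta-catenin) led at 214 FPKM, ahead of Myc and the Hippo effector gene Wwtr1 at 83.3 FPKM. The DNA repair gene Brca2 was the lowest at 1.59 FPKM. Of 33 apoptosis genes 27 had a value, with a median of 14.5 FPKM. The survivin gene Birc5, also a mitosis gene, stood at 191 FPKM, the pore-forming Bax at 167 FPKM and the survival gene Bcl2l1 at 95.1 FPKM. The lowest was Bmf at 1.64 FPKM. Looked at after their values were seen, the survival genes Mcl1 and Bcl2 stood at 75.7 and 2.33 FPKM, a difference of 32.4-fold. Of 42 other transcription factors 38 had a value, with a median of 23.2 FPKM. The stress-response factor gene Atf4 stood at 342 FPKM, the chromatin protein gene Hmga1 at 204 FPKM, the hypoxia factor gene Hif1a at 151 FPKM and the inhibitor of differentiation Id1 at 140 FPKM. The immediate-early gene Fosb was the lowest at 0.514 FPKM.

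Energy metabolism was read in the order of its pathways. Glycolysis splits glucose to pyruvate, which lactate dehydrogenase can reduce to lactate for export. Of 23 genes 21 had a value, with a median of 68.3 FPKM and 14 in the top 25%. Ldha stood at 1108, Tpi1 at 801, Gapdh at 639 and Aldoa at 594 FPKM, and Ldhb and Aldoc had no value. Tpi1 and Hk1 share a locus with another listed gene. The neuronal enolase gene Eno2 was the lowest at 5.71 FPKM. Among isoform pairs looked at after their values were seen, the glucose transporter gene Slc2a1 at 92.5 FPKM exceeded Slc2a3 at 8.30 FPKM 11.1-fold, and Hk1 at 41.9 FPKM exceeded Hk2 at 13.5 FPKM 3.09-fold. All 31 genes of pyruvate dehydrogenase and the tricarboxylic acid cycle had a value, with a median of 66.3 FPKM and 23 in the top 25%. They were led by Sdhd at 371, Dld at 261, Mdh1 at 258 and Mdh2 at 247 FPKM, of which the last 3 differed by less than 2 errors. The pyruvate carboxylase gene Pcx, which shares its locus, was the lowest at 4.91 FPKM.

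The respiratory chain and ATP synthase turn the electrons of that cycle into ATP. Of 57 nuclear-encoded genes 56 had a value, with a median of 178 FPKM, and 51 lay in the top 25% and 47 in the top 10%. Atp5b stood at 1077 FPKM, Cox6b1 at 1064 FPKM, Ndufa4 at 1031 FPKM and Cox4i1 at 847 FPKM. Atp5b shares its locus with another listed gene. Atp5l, a subunit of the same enzyme as Atp5b, was the lowest at 3.49 FPKM, and its unique words were 30.4% against 95.9% for Atp5b. Over the 56 genes Spearman's rho between unique words and level was 0.32. All 37 with at least 90% unique words lay in the top 25% of the genes with such a share, rather than of all genes. The part of mapping in the low levels was not tested. Fatty acid oxidation was lower, with 22 of 25 genes having a value, a median of 34.4 FPKM and 11 in the top 25%. It was led by the electron transfer gene Etfb at 115 FPKM, Echs1 at 71.4 FPKM, Acadl at 69.3 FPKM and Acsl5 at 61.5 FPKM, with the carnitine transferase gene Cpt1c the lowest at 1.32 FPKM.

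Biosynthetic pathways differed from each other. All 25 genes of the pentose phosphate route and of nucleotide synthesis had a value, with a median of 63.6 FPKM and 18 in the top 25%. Nme2 stood at 298 FPKM, Paics at 246 FPKM, Adss at 211 FPKM and Taldo1 at 208 FPKM, and the pyrimidine enzyme gene Dhodh was the lowest at 6.50 FPKM. Paics shares its locus with another listed gene. Of 30 amino acid genes 29 had a value, with a median of 45.8 FPKM and 18 in the top 25%. The polyamine enzyme gene Odc1 stood at 464 FPKM, asparagine synthetase Asns at 330 FPKM, the serine enzyme gene Psat1 at 290 FPKM and Glud1 at 144 FPKM. Sterol and fatty acid synthesis was close to the level of all genes, with 34 of 36 genes having a value, a median of 16.7 FPKM and 7 in the top 25%. The desaturase gene Scd2 stood at 139 FPKM, Sc4mol at 87.8 FPKM, Sc5d at 87.7 FPKM and Elovl5 at 75.9 FPKM, and the committed-step enzyme gene Acaca was the lowest at 2.77 FPKM. Redox and iron genes stood higher, with 30 of 31 having a value, a median of 98.0 FPKM and 25 in the top 25%. Fth1 was followed by the metallothionein gene Mt2 at 1298 FPKM, ferritin light chain Ftl1 at 1279 FPKM and thioredoxin Txn1 at 830 FPKM. Txnrd2, which shares its locus, was the lowest at 8.72 FPKM.

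Genes that make, fold and remove proteins stood high. Chaperones, with 37 of 39 genes having a value, had a median of 239 FPKM and 31 in the top 25%. Hsp90ab1, the constitutive cytosolic HSP90 that 17-AAG is known to bind, stood at 1522 FPKM in cells that had received no compound, and its partner Hspa8 at 1070 FPKM. The chaperonin genes Cct5 and Cct4 stood at 891 and 741 FPKM, and Hspa1b, an HSP70 that heat shock induces, was the lowest at 0.953 FPKM. Hspa1b has a near-identical copy, so its level is uncertain. The paralog Hsp90aa1, named after its value was seen, stood at 215 FPKM, 7.08-fold below Hsp90ab1. Its unique words were 37.1% against 83.4% for Hsp90ab1, so this fold is uncertain as well. All 35 translation factors had a value, with a median of 182 FPKM and 34 in the top 25%. Eef1a1 was followed by Eef2 at 1258 FPKM, Eif5a at 1129 FPKM and Eef1b2 at 761 FPKM, and the initiation factor gene Eif2s3x was the lowest at 23.5 FPKM. Eef1b2 shares its locus with another listed gene. All 32 proteasome genes had a value, with a median of 153 FPKM and 29 in the top 25%. They ran from Psma7 at 785, Psma6 at 623, Psmb7 at 584 and Psmd8 at 422 FPKM to the ubiquitin receptor gene Adrm1 at 12.7 FPKM.

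All 82 cytosolic ribosomal proteins had a value, with a median of 205 FPKM and 71 in the top 25%. Their range was wide, since Rpl24 stood at 0.677 FPKM against 3128 FPKM for Rpl8. Reads of these genes can fall on pseudogenes, so their unique words were set beside their levels. Of 81 with a single name, 36 had under 50% unique words, with a median of 195 FPKM, and 39 had 50 to 90%, with a median of 167 FPKM. The 6 with at least 90% ran from 22.6 FPKM upward with a median of 2454 FPKM. Below the top 25% of all genes lay 5 of the 36, 5 of the 39 and 1 of the 6. Spearman's rho between this share and the level was 0.11 over the 81 genes, which share libraries and are not independent replicates. The part of mapping in these levels was not tested. Under 50% unique words were also found for some genes named in other lists, Eef1a1 (28.6%), Gapdh (15.9%), Hspa8 (22.8%), Ftl1 (19.4%), Hmga1 (26.7%), Mif (43.6%), Odc1 (48%), Acaca (43.2%) and Adrm1 (17.9%), so their levels are uncertain too.

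Genes of structure and matrix completed the picture. Of 40 cytoskeleton genes 39 had a value, with a median of 152 FPKM and 33 in the top 25%. Cofilin Cfl1, which severs actin filaments, stood at 1167 FPKM, Actb at 1007 FPKM and the annexins Anxa2 and Anxa1 at 982 and 922 FPKM. The myosin light chain gene Myl9 was the lowest at 0.727 FPKM. Of 46 genes of matrix, integrins and extracellular proteolysis 37 had a value, with a median of 17.2 FPKM, 17 in the top 25% and 4 under 1 FPKM. The protease genes Ctsl at 713, Ctsd at 251 and Ctsb at 242 FPKM and the integrin gene Itgb1 at 501 FPKM led. Ctsb shares its locus with another listed gene. Of the 39 lists with any value, 15 had a median in the top 25% of all genes, among them the adipocyte list with Fabp4 alone, and lists share some members.

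**Figure D3:**
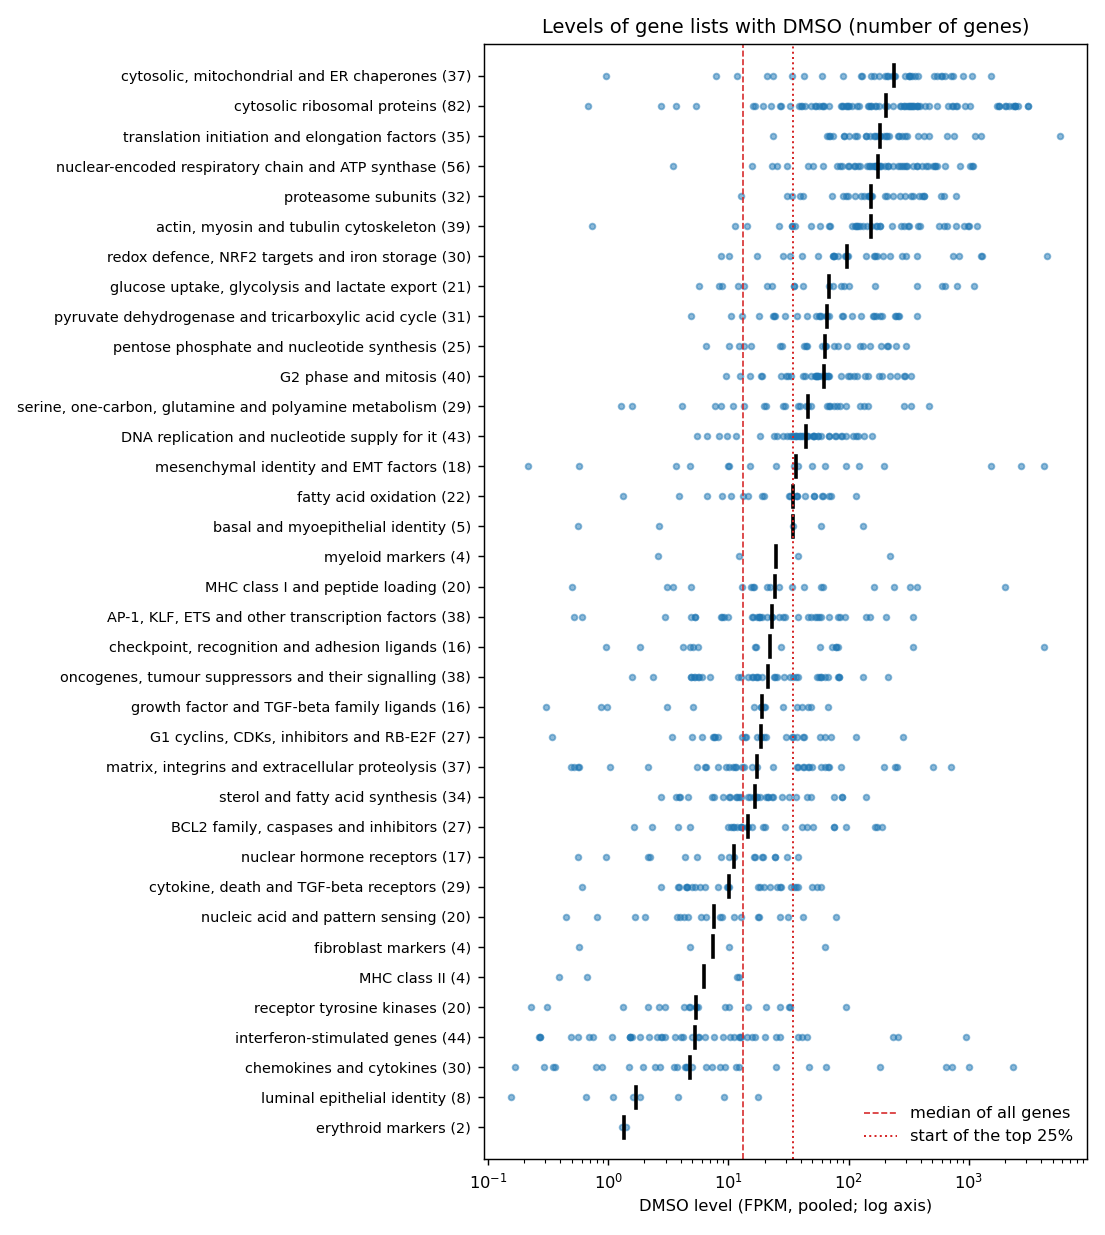
DMSO level in FPKM (horizontal, log axis) of each gene with a value in 36 gene lists, 1 blue point per gene, with the list's median as a black bar, the median of all genes (13.1 FPKM) as a dashed line and the start of the top 25% (34.8 FPKM) as a dotted line. Lists with a single gene are not drawn. Chaperones, ribosomal proteins and translation factors have the highest medians, and luminal and erythroid genes the lowest.

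Products of a complex are often needed in fixed ratios, so the spread of subunit levels was described for 14 complexes, grouped with results of these data known. Over all genes above 0 the SD of log2 FPKM was 2.46. The CCT chaperonin, a ring that folds actin and tubulin, was the tightest, with an SD of 0.49 over 8 genes, from Cct7, which overlaps another listed gene, at 320 FPKM to Cct5 at 891 FPKM. The MCM helicase followed with an SD of 0.60 over 6 genes, from Mcm7 at 36.8 FPKM to Mcm6 at 116 FPKM. The proteasome ATPase ring had an SD of 0.72 over 6 genes, but the proteasome core particle had 1.61 over 14 genes. The clamp loader RFC had an SD of 0.85, the initiation factor eIF3 0.90 and the replication complex GINS 1.16. Among respiratory complexes, succinate dehydrogenase (complex II) had an SD of 0.85 over 4 genes. The SD was 1.01 over the 24 genes of complex I, 1.29 over the 7 genes of complex III and 1.64 over the 10 genes of complex IV. ATP synthase had an SD of 2.13 over 14 genes, in which Atp5l lay 309-fold below Atp5b. The share of unique words in the lowest member was 30.4% for Atp5l, 45.7% for Uqcrb of complex III, 50.7% for Ndufs3 of complex I and 70.1% for Cox7c of complex IV. In the narrower complexes it was 92.5% for Cct7, 62.4% for Mcm7 and 60.3% for Psmc1 of the ATPase ring. For the others it was 72.9% for Psma3 of the proteasome core, 46.3% for Eif3m, 84.4% for Rfc5, 99.3% for Gins3 and 100% for Sdha of complex II. The part of mapping in these spreads was not tested. The large and small ribosomal subunits had SDs of 2.43 and 2.49, near that of all genes. Each of these spreads exceeds the median error of 0.150 at 100 FPKM or more, which leaves out mapping.

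**Figure D4:**
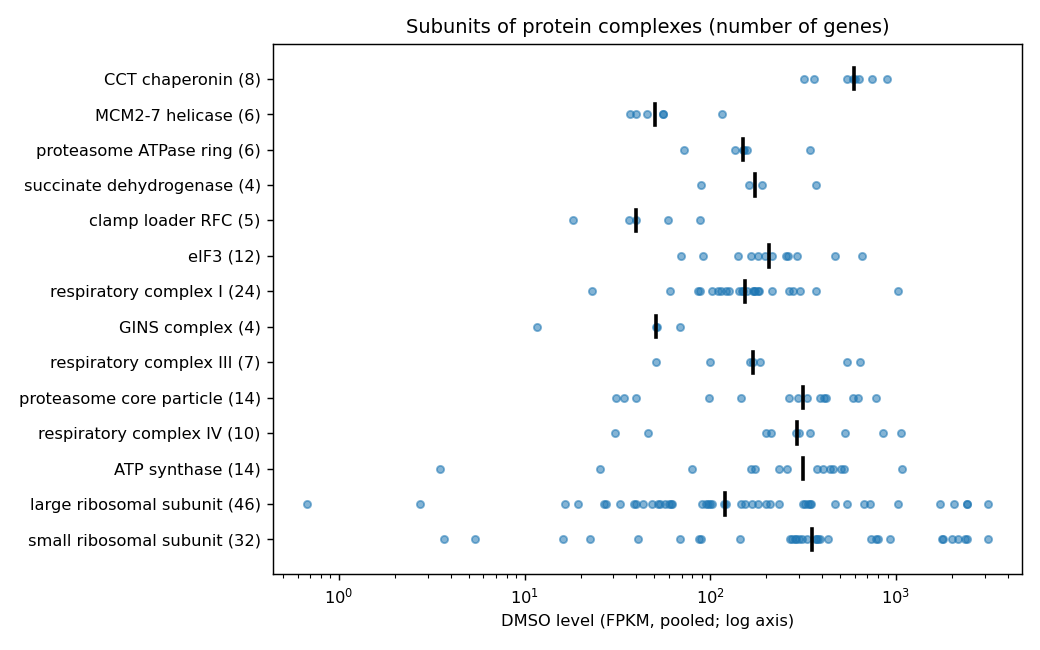
DMSO level in FPKM (horizontal, log axis) of the subunit genes of 14 complexes, 1 point per gene with the median as a black bar, ordered from the narrowest spread (CCT chaperonin, SD of log2 0.49) at the top to the widest (small ribosomal subunit, 2.49) at the bottom.

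Sequence features were set against level over protein-coding genes, in 10 bins into which all 11397 genes were divided by DMSO FPKM, with 938 to 1130 coding genes in a bin. A RefSeq promoter, 250 bases before to 50 after the start, was found for 8847 of 10904 coding genes (81.1%). In the 2 lowest bins, with 75.7% and 79.6% matched, the match is too low to be used. The median ratio of observed to expected CpG was 0.729 in bin 3 and 0.817 in bin 10, the highest, against 0.384 over all 32851 promoters of the table. Across all matched genes, those of the 2 lowest bins included, Spearman's rho with level was 0.25 (n = 8847), and over genes of at least 1 FPKM it was 0.19 (n = 8229). TATAAA between 40 and 20 bases before the start was found in 1.97% of the promoters of bin 10 and in 0.393 to 1.16% of those of bins 3 to 9, against 1.91% of all promoters. A C followed by at least 5 C or T within 10 bases of the start was found in 13.9 to 17.4% over bins 3 to 10, against 15.1% of all promoters. Both motifs were searched on the strand of the gene, and a gene with several promoters counted as the mean over them. The figures over all promoters, for CpG as well, instead count each promoter once. They are not restricted to coding genes or to genes with a value, so they are not a like baseline for the bins. The longest annotated transcript had a median of 2898 bases in bin 1 and 3488 bases in bin 2, was longest in bin 3 at 3744 bases and declined to 1864 bases in bin 10 (rho -0.24, n = 10867). FPKM divides by length, so length enters both sides of that relation. These are descriptions over genes that share libraries, and genes are not independent replicates.

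**Figure D5:**
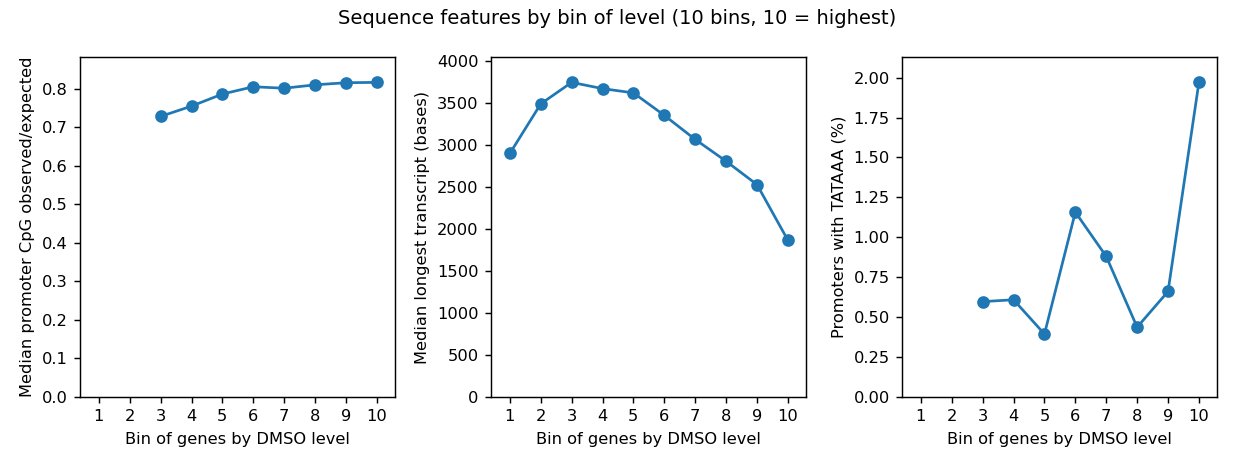
Median promoter CpG ratio, median longest transcript in bases and percentage of promoters with TATAAA (vertical axes) by bin of DMSO level (horizontal, 10 is the highest). Bins with promoters for under 80% of genes are not drawn in the promoter panels. CpG ratio reaches 0.817 and transcript length 1864 bases in bin 10, where the share with TATAAA is 1.97%.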

How the data were processed

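RNA sequencing of E0771 cells was read from a pair of tables in which the authors compared each compound with DMSO. STAR, Cufflinks and Cuffdiff with the mm9 build are named in the submitters' processing notes, with versions not given in the sources used here. Each deposited group value was taken to be in FPKM, as Cuffdiff reports, pooled by the authors over 2 libraries. DMSO values came from the EnnA table (11024 genes), and 373 genes listed only in the 17-AAG table were added after division by 1.10, the median DMSO ratio over the 10932 genes in both tables. Of these, 1 differed from that ratio by over 0.1 on the log2 scale. The deposited p-value of each gene, 5e-05 at the lowest, was turned into a standard error of the log2 difference, leaving out genes at that floor or with p of at least 0.9. Values per library and read counts were not used here, so depth and the precision it gives are unknown.

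Rank 1 is the highest level. For 41 lists the number with a value, the median and the count in the top 25% of all genes were taken, with no test. The members and lists were chosen with earlier results of these data known. Named genes were the 8 given markers, the 25 highest genes, the 4 highest and the lowest member of each list, members at 0, and the members of the lineage, receptor, checkpoint, MHC class II and cell type lists. Some genes that this rule names are not reported here. Genes whose locus overlaps another listed gene (1304) or with merged names (11) were marked. Promoters and transcripts came from RefSeq (GRCm38.p6) and GENCODE tables, matched by symbol or synonym. Scripts were tested on simulated data. Python 3.11.15, pandas 2.3.3, numpy 2.4.6, scipy 1.17.1 and matplotlib 3.10.9 were used.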

Additional observations from a re-analysis of the deposited data

How the results depend on the processing

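No paired analysis was possible because the deposited columns are pooled and hold no value per library, and for the same reason leaving out a replicate and a replicate block were not run. Of 298 alternative values for 53 results, 256 stayed within 1.5 times a count or within the error of a level, 42 moved and 0 reversed. Taking DMSO from the 17-AAG table, keeping genes in both tables and leaving out small non-coding RNAs moved none. The first of these reads the same 2 DMSO libraries divided by 1 ratio. Its 48 unmoved values could therefore hardly have moved and are no check on the levels. Counting the top 10% in place of the top 25% left 8 lists in place of 15 with a median in it. Members in it were then 14 for mitosis and for the tricarboxylic acid cycle, 9 for glycolysis and for nucleotide synthesis, 8 for replication and 7 for amino acids. There were 6 for mesenchymal genes, transcription factors and matrix, 5 for MHC class I, 4 for apoptosis and 3 for interferon-stimulated genes and lipid synthesis. There were 2 for checkpoint ligands, G1 and oncogenes, 1 for basal, myeloid and fatty acid oxidation genes, and 0 for nuclear receptors, growth factors, cytokine receptors, pattern sensing and fibroblast genes. The construction of that threshold, a smaller share of genes, lowers each count. With genes of at least 1 FPKM the counts were 0 for nuclear receptors, 3 for cytokine receptors and 1 for myeloid genes. Without shared loci, G1 genes counted 5. Each alternative that leaves out genes set its top 25% among the genes it kept. With genes of at least 90% unique 31-base words, an alternative chosen after seeing the data that tests fewer genes, the counts were 5 of 6 ribosomal proteins, 16 of 16 translation factors, 20 of 23 cytoskeleton genes, 6 of 12 glycolysis genes and 3 of 34 interferon-stimulated genes. Scaled so that all genes sum to 1000000, the median was 25.1. That scaling multiplies every gene by 1 factor, so its 8 moved values were fixed in advance and leave all ranks as they were. Pooled FPKM cannot show how far the 2 libraries differed, and levels under 2 FPKM carry the widest error.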

Other observations

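Gene families were read after their values were seen, with no test. Some members are also in the lists above, among them S100a4, S100a8, Anxa1 and Anxa2. The 9 S100a genes with a value had a median of 208 FPKM, with 7 in the top 25%, and the 9 annexins had a median of 123 FPKM. Both families bind calcium. Replication-dependent histone genes, whose messages mostly lack a poly(A) tail, had a median of 1.22 FPKM over 39 names beginning with Hist, and 18 of them lay under 1 FPKM, although the replication genes of the same cells had a median of 44.1 FPKM. The libraries are labelled mRNA libraries, and the part of poly(A) selection in the histone values was not tested. Zinc finger genes named Zfp, many of which encode repressors, had a median of 5.34 FPKM over 283 genes. Of 21 genes listed at 0 with DMSO, 13 were small non-coding RNAs. Chromosome medians ran from 9.98 FPKM on chromosome 7 to 17.0 FPKM on chromosome 6.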
